A study of Mus musculus with 20 samples.

Results

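Interferon-stimulated genes were followed in dissociated mouse spinal cord before and after contusion injury, with and without drug depletion of microglia. The set was a named list of 37 genes, and all 37 were among the 16003 genes of the count table. Its genes were taken by symbol with no cutoff on measured values, but earlier results of these data were known when they were chosen. Interferons are secreted when a cell senses foreign or misplaced nucleic acid. Type I interferons bind the receptor Ifnar1 and Ifnar2, and the kinases Jak1 and Tyk2 then activate a complex containing Stat2 and Irf9 that binds the interferon-stimulated response element in target promoters. Interferon-gamma, made by T and NK cells, binds Ifngr1 and Ifngr2. In nervous tissue, small groups of microglia with a raised interferon signature are known from ageing, demyelination and injury, and brain endothelial cells are known to carry a standing level of many of these transcripts.

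The study profiled cells from a 1 cm length of cord of female C57BL/6J mice aged 8 to 10 weeks by droplet single-cell RNA sequencing. Mice ate chow with PLX5622 at 1200 ppm, an inhibitor of the colony stimulating factor 1 receptor that depletes microglia, or vehicle chow, from 2 weeks before surgery to the end point. Surgery was a T9 contusion, sampled at 7 or 28 days post injury (dpi), or a sham laminectomy, for which the labels give both end points. Each of the 6 combinations of diet and surgery was 1 library made from several pooled mice, so mice could not be told apart, no spread between animals could be had and no test was run. The sham, 7 dpi and 28 dpi libraries held 1795, 7439 and 9846 cells under vehicle and 492, 504 and 940 cells under PLX5622, with a median of 2268.5 to 5127 UMIs per cell.

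Cells were compared within the authors' 14 clusters. All detected endothelial, ependymal, astrocyte, neutrophil and progenitor markers were highest in their own cluster, and 5 of 6 markers were highest in the microglia and in the monocyte-derived macrophage (MDM) cluster. In the monocyte or dendritic cluster, only 4 of 7 of its markers and 1 of 7 plasmacytoid dendritic markers were highest. Of the leptomeningeal markers, 3 of 6 were highest in their cluster. The erythroid label went against the data in the injured vehicle libraries, as given with that cluster. In the microglia cluster the 6 MDM markers were also higher after injury: together they stood at 59.6 CPM in sham vehicle microglia and at 4286 and 4252 CPM at 7 and 28 dpi. Whether these transcripts came from macrophages or from microglia was not tested. Over the same libraries the 6 microglia markers stood at 12690, 4617 and 4857 CPM in microglia, and the part of both marker lists in the results on microglia was not tested. Over all 6 libraries, 44 distinct cell barcodes occurred in at least 2 libraries, which touched 88 of 21016 cells. A level is given as CPM, the UMIs of a gene per 1000000 UMIs of all genes in the same cluster and library, and because the reads came from the 3' end, each transcript counted once whatever its length. Intervals are exact at 95% and cover counting error only, not the spread between cells or mice. A gene is called past the fold when its CPM differed at least 2-fold between libraries that together held at least 100 of its UMIs. The share of all genes past the fold is printed as the background, in CPM and at these settings only.

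Promoter sequence was available for 28 of the 37 members in RefSeq on build GRCm38.p6, in a window from 250 bases before to 50 bases after the start of the gene. The letters GAAANNGAAA of the interferon-stimulated response element, searched on both strands, occurred in 14 of these 28 promoters (50%), against 3.99% of 27025 genes. The letters TTCNNNGAA of the gamma-activated site occurred in 7 of 28 (25.0%), against 9.55% of genes. A match describes the letters in this window and is not a site of binding. The stretches below are shown because they belong to the members whose cell-by-cell behaviour is described further on (Ifit1, Ifit3, Isg15, Rsad2), to an abundant member (Bst2) and to a guanosine triphosphatase (GTPase) of the interferon-gamma group (Igtp). Capitals mark the response-element letters, which on the other strand read TTTCNNTTTC, and each is written 5' to 3' on the strand of the gene. In Isg15 and Bst2 the capitals cover matches that overlap. The windows lie at chr19:34640764-34640853 (plus strand) for Ifit1, chr19:34583367-34583456 (plus) for Ifit3, chr4:156200835-156200924 (minus) for Isg15, chr12:26456523-26456612 (minus) for Rsad2, chr8:71537547-71537636 (minus) for Bst2 and chr11:58199482-58199555 (plus) for Igtp.
Ifit1: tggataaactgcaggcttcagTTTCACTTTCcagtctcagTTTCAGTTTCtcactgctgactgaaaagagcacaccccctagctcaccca
Ifit3: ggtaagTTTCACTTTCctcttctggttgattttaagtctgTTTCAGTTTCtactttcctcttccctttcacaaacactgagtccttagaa
Isg15: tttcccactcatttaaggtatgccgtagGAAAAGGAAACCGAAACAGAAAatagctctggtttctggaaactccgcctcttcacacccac
Rsad2: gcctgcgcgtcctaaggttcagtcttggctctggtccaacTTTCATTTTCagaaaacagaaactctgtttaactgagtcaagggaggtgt
Bst2: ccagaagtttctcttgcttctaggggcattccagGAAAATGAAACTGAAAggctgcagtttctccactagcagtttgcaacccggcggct
Igtp: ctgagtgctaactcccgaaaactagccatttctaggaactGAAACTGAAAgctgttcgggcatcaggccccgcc
Both letter patterns occurred in Bst2, Ifitm3, Igtp and Oas1a. The members without a promoter entry were Usp18, Dhx58, Zbp1, Oas2, Mx1, Mx2, Ifi27l2a, Rtp4 and Parp14.

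Summed over the module of 37 genes, sham vehicle cords ranged from 333 CPM in oligodendrocyte lineage cells to 5980 CPM in the monocyte or dendritic cluster, erythroid cells apart. Endothelial cells stood at 4403 CPM, neutrophils at 2553 CPM, MDMs at 2363 CPM, ependymal cells at 2259 CPM, T and NK cells at 1883 CPM, microglia at 1571 CPM and astrocytes at 438.6 CPM. By this sum microglia were thus among the low clusters before injury. Much of the sum came from 4 abundant members. Ifitm3, a membrane protein that blocks virus entry, held 22.6% of all 190826 module UMIs, the secreted glycoprotein Lgals3bp 16.8%, the virus tether Bst2 14.7% and the small protein Ifi27l2a 14.7%. A core list of 20 members that respond mainly to type I interferon (the Ifit and Oas families, Isg15, Irf7, Usp18, Rsad2, Mx1, Mx2, Cmpk2, Rtp4, Xaf1, Zbp1, Ifi44, Herc6 and Dhx58) was therefore summed on its own. By the core list, erythroid cells apart (8896 CPM), sham vehicle endothelial cells stood at 1346 CPM, neutrophils at 653 CPM and the monocyte or dendritic cluster at 617 CPM. MDMs stood at 408 CPM, microglia at 395 CPM and T and NK cells at 346 CPM. Pericyte or fibroblast cells stood at 311 CPM, B cells at 287 CPM and progenitors at 240 CPM. Oligodendrocyte lineage cells stood at 192 CPM, astrocytes at 163 CPM and ependymal cells at 137 CPM. By the core list microglia were thus not among the low clusters.

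**Figure D1:**
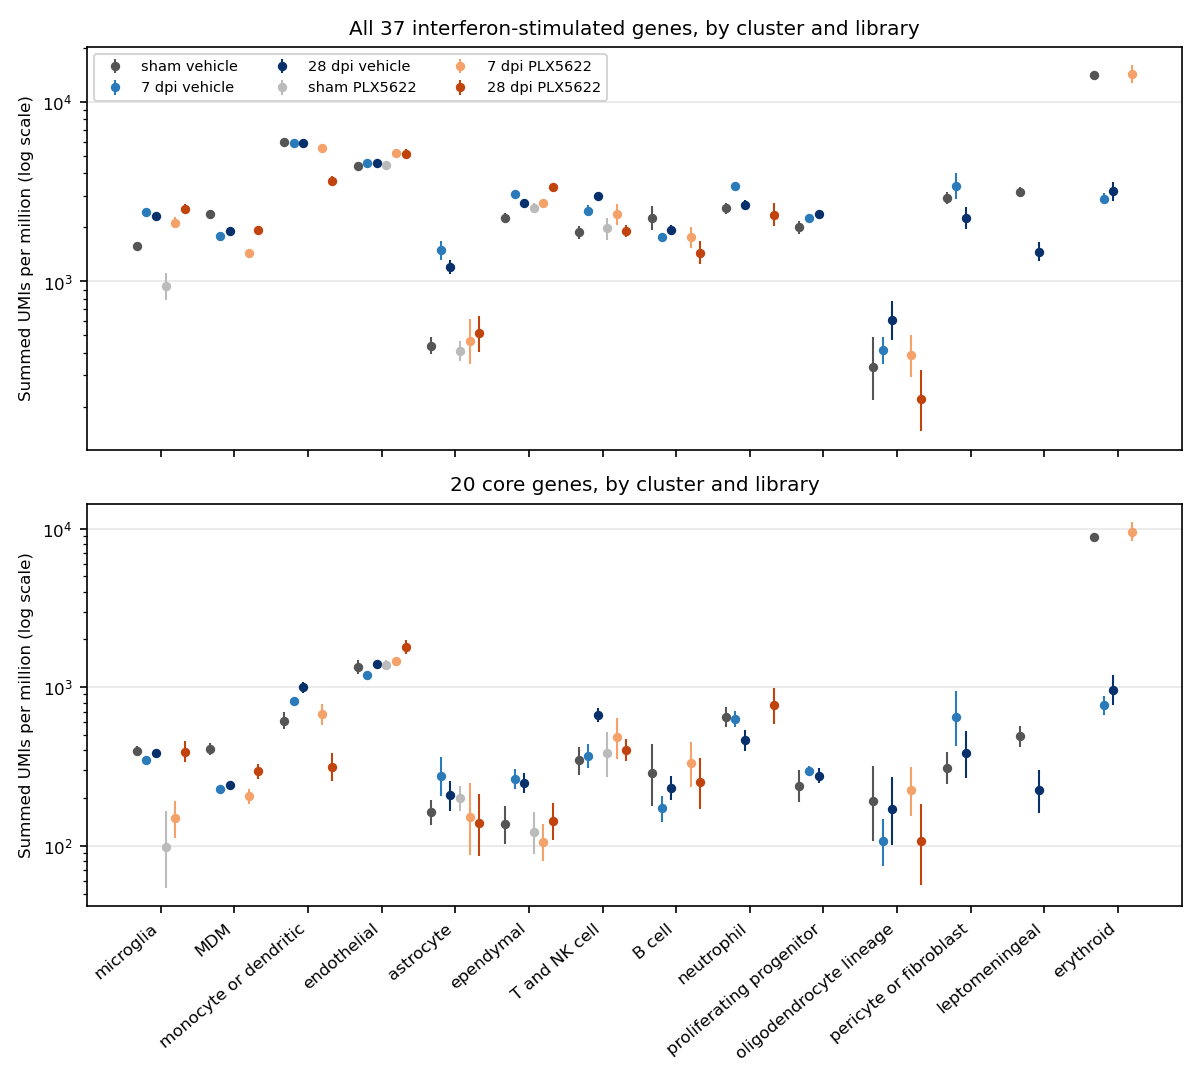
Summed level of the 37 members (module) and of the 20-gene core list by cluster, in CPM on a log axis; 1 point is 1 library, bars are exact 95% Poisson intervals, and clusters with fewer than 20 cells in a library are not drawn. The monocyte or dendritic and endothelial clusters sit above microglia in every vehicle library.

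The members differed in where they were highest. Among clusters of at least 20 cells, endothelial cells held the highest level of 12 of 37 members in each vehicle library, where the monocyte or dendritic cluster held that of 5, 6 and 13 in sham, 7 dpi and 28 dpi. Endothelial cells held the highest level of 23 of 32, 16 of 35 and 15 of 35 ranked members in the sham, 7 dpi and 28 dpi PLX5622 libraries. In all 6 libraries the endothelial level was the highest for Ifit1, Ifi44, Ifi35, Usp18 and the guanylate-binding protein Gbp3. For the RNA-binding protein Ifit1, the endothelial level in sham vehicle was 213.5 CPM and that of the next cluster, leptomeningeal cells, was 56.2 CPM. The interferon-gamma-inducible GTPase Ifi47 was highest in T and NK cells in all 6 libraries. In the 3 vehicle libraries Ifitm3 and Ifi27l2a were highest in the monocyte or dendritic cluster, at 2723, 2719 and 2219 CPM and at 1613, 1198 and 1317 CPM in sham, 7 dpi and 28 dpi. Ifit3 shares sequence with Ifit3b, and Oas1a with the other Oas1 genes, so the split of reads within these families is uncertain.

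**Figure D2:**
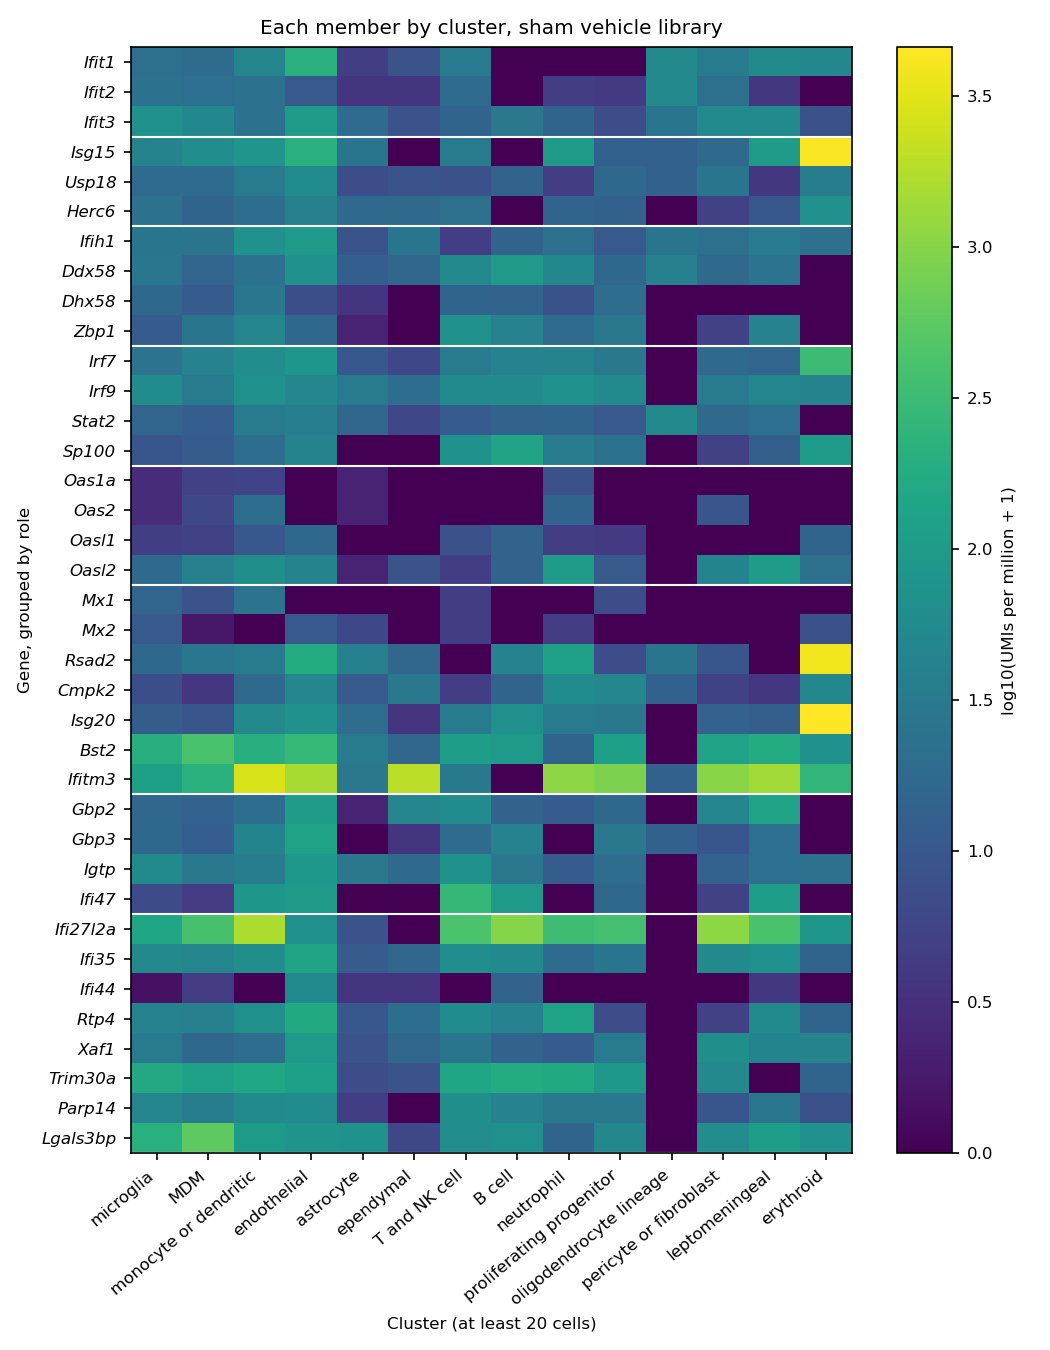
Level of each member (rows) in each cluster (columns) of the sham vehicle library, as log10 of CPM plus 1. Of the 37 members, 12 are highest in the endothelial column, 5 in the monocyte or dendritic column and 5 in the erythroid column.

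In microglia, the 4 abundant members were higher at both times after injury, and in CPM they accounted for the higher module level. The module stood at 1571 CPM in sham vehicle microglia, 2426 CPM at 7 dpi and 2313 CPM at 28 dpi, which is 0.63 (0.57 to 0.68) and 0.56 (0.50 to 0.61) above sham on the log2 scale. The 4 abundant members together went from 679 CPM in sham to 1748 and 1550 CPM, while the other 33 members together stood at 892, 678 and 764 CPM. The log2 ratios of those 33 were -0.40 and -0.22 in CPM and turned to 0.24 and 0.28 with edgeR's trimmed-mean (TMM) scaling.

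Ifi27l2a stood at 141 CPM in sham vehicle microglia, 523 CPM at 7 dpi and 488 CPM at 28 dpi. The secreted Lgals3bp stood at 211, 524 and 530 CPM, and the virus tether Bst2 at 206, 380 and 311 CPM. Ifitm3 stood at 121, 321 and 220 CPM. All 4 had their lowest vehicle value in sham. The log2 ratios at 7 dpi were 1.89 (1.72 to 2.07) for Ifi27l2a, 1.40 (1.22 to 1.60) for Ifitm3, 1.31 (1.17 to 1.46) for Lgals3bp and 0.89 (0.74 to 1.04) for Bst2. These transcripts were spread over many cells: the share of microglia with a UMI went from 18.8% in sham to 48.7% at 7 dpi for Ifi27l2a, from 33.5% to 64.9% for Lgals3bp and from 14.0% to 37.6% for Ifitm3, at median depths that also differed between the libraries. Ifi27l2a was at a lower level in the MDM cluster of the same injured libraries, 208 and 239 CPM, than in their microglia.

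Across the single members, 26 could be compared between 7 dpi and sham vehicle microglia, and 3 were past the fold upward (Ifi27l2a, Ifitm3, Lgals3bp), against a background of 4.02% of 6623 genes. Another 3 were past the fold downward, against 21.5% of genes: the interferon-gamma-inducible GTPase Igtp (-1.57), the ubiquitin ligase Herc6 (-1.12) and Ifit3 (-1.02). At 28 dpi, of 28 members, Ifi27l2a, Lgals3bp and the nucleic acid sensor Zbp1 were past the fold upward (background 3.62%), and Igtp alone downward (background 12.5%). Between 28 and 7 dpi none of 28 members was past the fold in either direction, where 0.659% of genes were upward and 0.323% downward. The median member had a log2 ratio of -0.17 at 7 dpi and 0.09 at 28 dpi, and the median of all genes compared was -0.54 and -0.44. Because that median lies below 0 in CPM, TMM scaling adds 0.63 and 0.50 to every log2 ratio. It left no member past the fold downward, turned the median member at 7 dpi from -0.17 to 0.47, and added Isg15, Oasl2, Bst2 and Zbp1 to those past the fold upward at 7 dpi. No share of all genes past the fold was computed with TMM. The 3 downward members stayed below 0 with it, Igtp at -0.94 and Ifit3 at -0.39.

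By role, the Ifit family in microglia showed 1 member apart from the others. The RNA-binding Ifit3 stood at 72.5 CPM in sham vehicle, 35.7 CPM at 7 dpi and 37.1 CPM at 28 dpi, whereas Ifit1 stood at 20.5, 18.2 and 23.2 CPM and Ifit2 at 23.4, 20.7 and 20.4 CPM. A single sham cell held 43 of the 152 Ifit3 UMIs, and leaving out the cell richest in Ifit3 in each library gave a log2 ratio of -0.64 at 7 dpi. Without the richest cell of each gene, Igtp was the only downward member at 7 dpi and none was downward at 28 dpi.

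Isg15, the ubiquitin-like modifier, stood at 42.0, 55.7 and 60.7 CPM in sham, 7 dpi and 28 dpi vehicle microglia, and its protease Usp18 at 18.1, 17.3 and 20.2 CPM. The factor Irf7, which amplifies type I interferon, stood at 23.9, 26.4 and 26.4 CPM, and Irf9, a part of the Stat complex, at 57.3, 37.9 and 34.3 CPM. Among effectors, the radical enzyme Rsad2 stood at 16.2, 15.0 and 21.2 CPM and the GTPase Mx1 at 14.8, 10.5 and 12.4 CPM. The nucleic acid sensor Zbp1 stood at 10.5, 20.9 and 21.3 CPM. Of the interferon-gamma-inducible GTPases, Igtp stood at 56.3, 19.0 and 27.4 CPM and Gbp3 at 15.7, 2.96 and 5.42 CPM. The core list stood at 395, 347 and 387 CPM, giving log2 ratios of -0.19 (-0.30 to -0.07) and -0.03 (-0.14 to 0.08) to sham, and with TMM scaling these turned to 0.45 and 0.47.

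**Figure D3:**
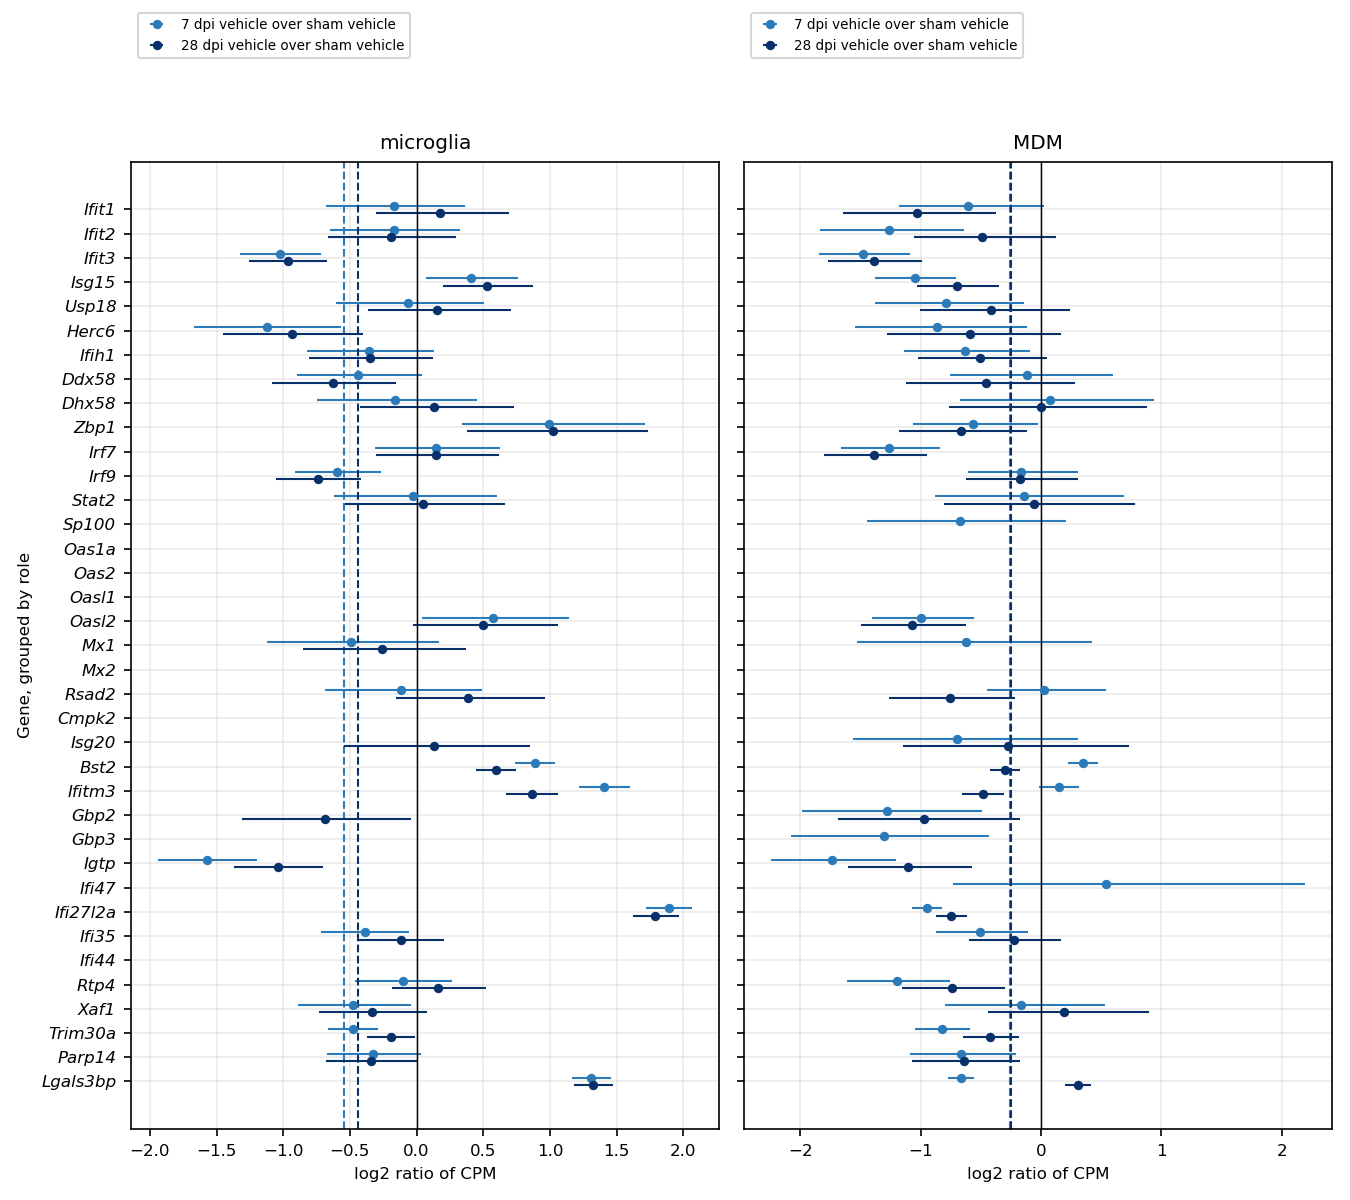
Log2 ratio of CPM, 7 dpi and 28 dpi vehicle over sham vehicle, for each member in microglia and in MDMs; bars are exact 95% intervals, dashed lines the medians of all genes compared, and members with fewer than 100 UMIs are not drawn. In microglia at 7 dpi Ifi27l2a, Ifitm3 and Lgals3bp lie highest and Igtp lowest, and in MDMs most members lie below 0.

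The remaining members were mostly level or low in microglia. Trim30a, a ubiquitin ligase that restrains inflammatory signalling, was the most abundant of them at 162, 116 and 142 CPM in sham, 7 dpi and 28 dpi vehicle, and the receptor transporter Rtp4 stood at 40.6, 37.8 and 45.3 CPM. The RNA sensors Ifih1, Ddx58 and Dhx58 stood at 25.8, 20.1 and 20.2 CPM, at 26.7, 19.7 and 17.3 CPM, and at 15.7, 14.1 and 17.3 CPM. None of these sensors moved by 2-fold. Oasl2 stood at 16.7, 24.9 and 23.6 CPM, Stat2 at 14.8, 14.5 and 15.3 CPM, Ifi35 at 52.0, 39.7 and 47.9 CPM, Xaf1 at 32.9, 23.7 and 26.1 CPM and Parp14 at 44.9, 35.8 and 35.4 CPM. At 7 dpi 11 members had too few UMIs to compare: Ifi44, Ifi47, Isg20, Oas1a, Oas2, Oasl1, Mx2, Gbp2, Gbp3, Sp100 and Cmpk2. Isg20 and Gbp2 could be compared at 28 dpi.

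Few microglia were left under PLX5622: 29, 61 and 126 cells in the sham, 7 dpi and 28 dpi libraries. The abundant members were again lowest in sham, with 91.8, 550 and 626 CPM for Ifi27l2a, 282, 634 and 535 CPM for Lgals3bp, and 21.2, 222 and 261 CPM for Ifitm3. The module stood at 939, 2129 and 2545 CPM, and the injured libraries lay 1.18 (0.91 to 1.46) and 1.44 (1.18 to 1.71) above sham PLX5622 on the log2 scale. Against vehicle microglia, the core list was lower in the sham and 7 dpi PLX5622 libraries and level at 28 dpi. It stood at 98.9, 149 and 393 CPM, a log2 ratio to vehicle of -2.0 (-2.88 to -1.24), -1.22 (-1.63 to -0.84) and 0.02 (-0.21 to 0.25). Ifit3 had 0 UMIs in sham PLX5622, which with the floor of 3 UMIs puts its log2 ratio at -1.78 or lower, and it stood at 5.22 CPM at 7 dpi and 44.2 CPM at 28 dpi. Isg15 stood at 7.06, 20.9 and 62.8 CPM. Zbp1 had 20 UMIs in 16 of the 126 cells at 28 dpi, 46.5 CPM, and 5.22 CPM at 7 dpi.

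In MDMs most members compared were lower in CPM in the injured vehicle libraries than in sham. Of 31 members 5 were above their sham level at 7 dpi and of 27 members 3 at 28 dpi, and with TMM scaling 9 and 8 were. Most genes compared were also below sham in CPM. The median log2 ratio of all genes was -0.25 at both times in CPM, and 0.10 and 0.07 with TMM. The sham vehicle library held 185 MDMs against 3023 and 3313 at 7 and 28 dpi, and the 6 MDM markers stood at 10260, 37810 and 21780 CPM, lowest in sham. The 6 microglia markers stood at 3803, 1136 and 1673 CPM in the same cells, highest in sham as were most members compared. The part of both marker lists in the result was not tested. The module stood at 2363, 1783 and 1921 CPM in sham, 7 dpi and 28 dpi, with log2 ratios to sham of -0.41 (-0.46 to -0.35) and -0.30 (-0.35 to -0.25), which TMM scaling brought to -0.05 and, with the direction turned, to 0.02. The core list stood at 408, 228 and 240 CPM, and its log2 ratios of -0.84 (-0.96 to -0.71) and -0.77 (-0.89 to -0.64) were -0.48 and -0.44 with TMM.

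None of 31 members was past the fold upward in MDMs at 7 dpi, where 4.09% of 8303 genes were. Past the fold downward were 8 (background 11.0%): Igtp, Ifit3, Gbp3, Gbp2, Irf7, Ifit2, Rtp4 and Isg15. At 28 dpi 0 of 27 were upward (background 1.53%) and 5 downward (background 5.63%): Ifit3, Irf7, Igtp, Oasl2 and Ifit1. Between 28 and 7 dpi, of 33 members 0 were upward (background 3.29%) and Ifi47 alone downward (background 3.6%). With TMM, Ifit3 and Igtp at 7 dpi and Ifit3 and Irf7 at 28 dpi were downward. The median member had a log2 ratio of -0.67 at 7 dpi and -0.51 at 28 dpi, against -0.25 for all genes at both times.

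Ifit3 stood at 50.1 CPM in sham vehicle MDMs, 18.0 CPM at 7 dpi and 19.2 CPM at 28 dpi. The factor Irf7 stood at 41.6, 17.4 and 15.9 CPM, and the modifier Isg15 at 60.6, 29.4 and 37.4 CPM. Each had its highest vehicle value in sham. A few sham cells weighed heavily in these sums: 1 MDM held 33 of the 71 Ifit3 UMIs, and 1 cell held 116 of the 579 core UMIs. Without the richest cell of each gene, 4 members stayed downward at 7 dpi (Irf7, Rtp4, Gbp3 and Igtp), Ifi47 became upward, and Irf7 was the only one downward at 28 dpi. The log2 ratio of Ifit3 was then -0.70 at 7 dpi. The abundant members did not share a direction: Ifi27l2a stood at 401, 208 and 239 CPM, Lgals3bp at 560, 352 and 693 CPM, Bst2 at 409, 520 and 332 CPM and Ifitm3 at 221, 245 and 158 CPM in sham, 7 dpi and 28 dpi.

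Few members separated PLX5622 from vehicle MDMs. At 7 dpi, 100 PLX5622 MDMs had a module level of 1437 CPM against 1783 CPM under vehicle, a log2 ratio of -0.31 (-0.37 to -0.25). The make-up of the cluster differed too, with the 6 MDM markers at 67700 against 37810 CPM and the 6 microglia markers at 627 against 1136 CPM, and their part in the result was not tested. Of 31 members, Ifi47 was past the fold upward (background 1.83%), and the exonuclease Isg20 and the GTPase Mx1, with 3 and 4 UMIs under PLX5622, downward (background 2.17%). At 28 dpi, 161 PLX5622 MDMs stood at 1942 CPM against 1921 CPM, a log2 ratio of 0.02 (-0.04 to 0.08), with the MDM markers at 29200 against 21780 CPM and the microglia markers at 1267 against 1673 CPM. Of 27 members, Rsad2 (1.43, 0.98 to 1.86) and Gbp2 (1.32, 0.58 to 2.00) were upward (background 2.33%) and 0 downward (background 2.48%).

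A single macrophage carried much of the 28 dpi PLX5622 signal. It held 104 of the 379 core UMIs of the cluster (27.4%), and it held the most UMIs of 14 of the genes examined, among them Ifit1, Ifit2, Ifit3, Isg15, Irf7, Rsad2, Cmpk2 and Gbp2. Of Rsad2, 35 of 55 UMIs came from that cell, and without it the level went from 42.7 to 15.6 CPM, beside 15.9 CPM in the vehicle library. The interferon-induced chemokine Cxcl10, not a member, stood at 48.2 CPM with all 62 UMIs in that cell. Leaving out the richest cell of each gene left 0 members upward at 28 dpi and put Ifit2 downward. At 7 dpi the same step left 0 upward and 8 downward, and 25 of the 38 Ifit3 UMIs of that library came from 1 cell. In a library of 100 or 161 cells, leaving out 1 cell takes a larger share of a gene than in the vehicle libraries.

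Over all its cells, the endothelial cluster had a module level between 4403 and 5177 CPM in the 6 libraries, and the core list ran from 1186 to 1798 CPM. These levels include cells with myeloid marker transcripts, which differed between the libraries as given further below. In sham, 7 dpi and 28 dpi the module stood at 4403, 4603 and 4563 CPM under vehicle and at 4480, 5177 and 5144 CPM under PLX5622. After injury, vehicle endothelial cells differed from sham by log2 ratios of 0.06 (-0.02 to 0.15) and 0.05 (-0.04 to 0.14), and PLX5622 over vehicle was 0.02 (-0.07 to 0.12), 0.17 (0.11 to 0.23) and 0.17 (0.08 to 0.27) in sham, 7 dpi and 28 dpi. The core list was highest in the 28 dpi PLX5622 library, with a log2 ratio to 28 dpi vehicle of 0.36 (0.20 to 0.52).

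Of 19 members compared in endothelial cells at 7 dpi, the OAS-like protein Oasl2 was past the fold upward (background 5.43%) and 0 were downward (background 4.58%). With TMM, Ifi27l2a and Lgals3bp were upward beside it. At 28 dpi, of 14, Lgals3bp (1.69, 1.08 to 2.37) and Ifi27l2a (1.02, 0.34 to 1.76) were upward (background 5.06%), also with TMM, and 0 downward (background 2.71%). Oasl2 stood at 42.1, 95.2 and 78.9 CPM in sham, 7 dpi and 28 dpi vehicle and at 91.8, 95.6 and 176 CPM under PLX5622, so only sham vehicle, with 13 UMIs, was low. The RNA-binding Ifit1 stood at 213.5, 153 and 214 CPM under vehicle and 216, 163 and 318 CPM under PLX5622. Isg15 stood at 210, 209 and 248 CPM and 263, 253 and 301 CPM. Transcripts of the 12 microglia and MDM markers moved with injury in the endothelial cluster, from 430 CPM in sham vehicle to 7896 and 4721 CPM, and in PLX5622 from 44.2 to 1604 and 1531 CPM. In endothelial cells with fewer than 3 UMIs of these markers, Lgals3bp stood at 84.5, 81.9 and 140 CPM and Ifi27l2a at 52.3, 68.8 and 84.6 CPM in the vehicle libraries, where all endothelial cells gave 77.6, 153 and 251 CPM and 67.9, 132 and 137 CPM. The module in those cells stood at 4501, 5724 and 5222 CPM, further above sham after injury than over all endothelial cells. The part of the myeloid markers in the module ratios, also those of PLX5622 over vehicle, was not tested.

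The monocyte or dendritic cluster had the highest module level apart from erythroid cells, at 5980, 5916 and 5939 CPM in the vehicle libraries. Its core list stood at 617, 814 and 1002 CPM, and the injured libraries lay 0.40 (0.22 to 0.59) and 0.70 (0.50 to 0.91) above sham on the log2 scale. Irf7 stood at 61.5, 78.0 and 138 CPM and Isg15 at 81.2, 108 and 172.5 CPM. The 12 microglia and MDM markers in this cluster stood at 2791, 7734 and 4321 CPM under vehicle and at 8559 and 2147 CPM at 7 and 28 dpi under PLX5622, and their part in the result was not tested. At 7 dpi the 29 PLX5622 cells held Irf7 at 125.5 CPM, above the vehicle value, Isg15 at 95.1 CPM and Ifi27l2a at 871 CPM against 1198 CPM under vehicle. Their core list stood at 673 CPM, a log2 ratio to vehicle of -0.27 (-0.50 to -0.05). At 28 dpi the 63 PLX5622 cells held Irf7 at 38.5 CPM, Isg15 at 64.2 CPM and Ifi27l2a at 430 CPM against 1317 CPM under vehicle, each below vehicle. The core log2 ratio to 28 dpi vehicle was -1.67 (-1.99 to -1.36), while Bst2 stood at 623 CPM against 425 CPM.

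In T and NK cells the module stood at 1883, 2486 and 3007 CPM in sham, 7 dpi and 28 dpi vehicle and at 1975, 2371 and 1914 CPM under PLX5622. The core list was highest at 28 dpi vehicle, 668 CPM against 346 CPM in sham, a log2 ratio of 0.95 (0.63 to 1.29). The 12 microglia and MDM markers in these cells stood at 385, 7617 and 6532 CPM under vehicle and 58.9, 729 and 433 CPM under PLX5622, and their part in the result was not tested. Ependymal cells, where Ifitm3 made up most of the module at 1945, 2334 and 2050 CPM, had a module level of 2259, 3091 and 2737 CPM under vehicle and 2577, 2725 and 3356 CPM under PLX5622. The same 12 markers in ependymal cells stood at 385, 8080 and 3533 CPM under vehicle and 356, 3271 and 984 CPM under PLX5622. Their part in the ependymal levels was not tested.

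Astrocytes had a module level of 438.6 CPM in sham vehicle and stood at 1491 CPM at 7 dpi and 1200 CPM at 28 dpi under vehicle, a log2 ratio of 1.76 (1.53 to 2.00) and 1.45 (1.25 to 1.66). Ifi27l2a in astrocytes stood at 7.70, 261 and 198 CPM and Ifitm3 at 26.9, 310 and 104 CPM. Under PLX5622 Ifi27l2a had 0 UMIs after injury, and the module stood at 411, 467 and 515 CPM. The myeloid markers moved the same way: the 12 microglia and MDM markers stood at 1356, 14370 and 11900 CPM in the vehicle astrocytes and at 992, 2733 and 1524 CPM under PLX5622. In astrocytes with fewer than 3 UMIs of these markers, the module stood at 475 CPM in sham, 609 CPM at 28 dpi (114 cells) and 1784 CPM at 7 dpi, the last from 17 cells and 35 UMIs.

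The core genes were unevenly spread over cells. After each cell was thinned to 1000 UMIs, with shallower cells left out, 11 of 548 sham vehicle microglia (2.01%, exact interval 1.01% to 3.56%) held UMIs of at least 3 core genes, as did 49 of 1984 (2.47%) at 7 dpi and 80 of 3068 (2.61%) at 28 dpi. The intervals of the 3 libraries overlapped. Without thinning the shares were 5.19%, 7.89% and 5.84%. These few cells, chosen by their core genes, held 57.7%, 40.1% and 44.8% of the core UMIs of their library, and 85.8%, 80.1% and 79.5% of microglia held none. Endothelial cells chosen in the same way held 53.1%, 58.9% and 54.4%. Among endothelial cells, 35.5%, 37.1% and 35.0% held none, at a higher mean. The mean was 1.684, 1.635 and 1.637 core UMIs per thinned endothelial cell and 0.345, 0.356 and 0.399 per microglial cell. In the PLX5622 libraries 0 of 25 sham and 0 of 54 microglia at 7 dpi held at least 3 core genes, where a count of 0, taken as 3 cells, allows shares of up to 12.0% and 5.56%, and 3 of 113 (2.66%) did at 28 dpi.

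Other clusters set the scale for these shares. Cells with at least 3 core genes made up 3.43%, 1.20% and 1.96% of MDMs and 9.09%, 6.02% and 9.39% of the monocyte or dendritic cluster in sham, 7 dpi and 28 dpi vehicle. They made up 15.8%, 16.1% and 17.5% of endothelial cells under vehicle and 11.8%, 7.04% and 24.5% under PLX5622. In the erythroid cluster they were 8 of 38, 4 of 53 and 3 of 25 cells in sham, 7 dpi and 28 dpi vehicle. Among T and NK cells they were 1 of 61, 5 of 121 and 18 of 241 in the same libraries. Oligodendrocyte lineage cells had none in any library, including 0 of 95 at 7 dpi vehicle, which allows up to 3.16%. Astrocytes had 0 of 225 in sham and 1 of 147 at 28 dpi vehicle.

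**Figure D4:**
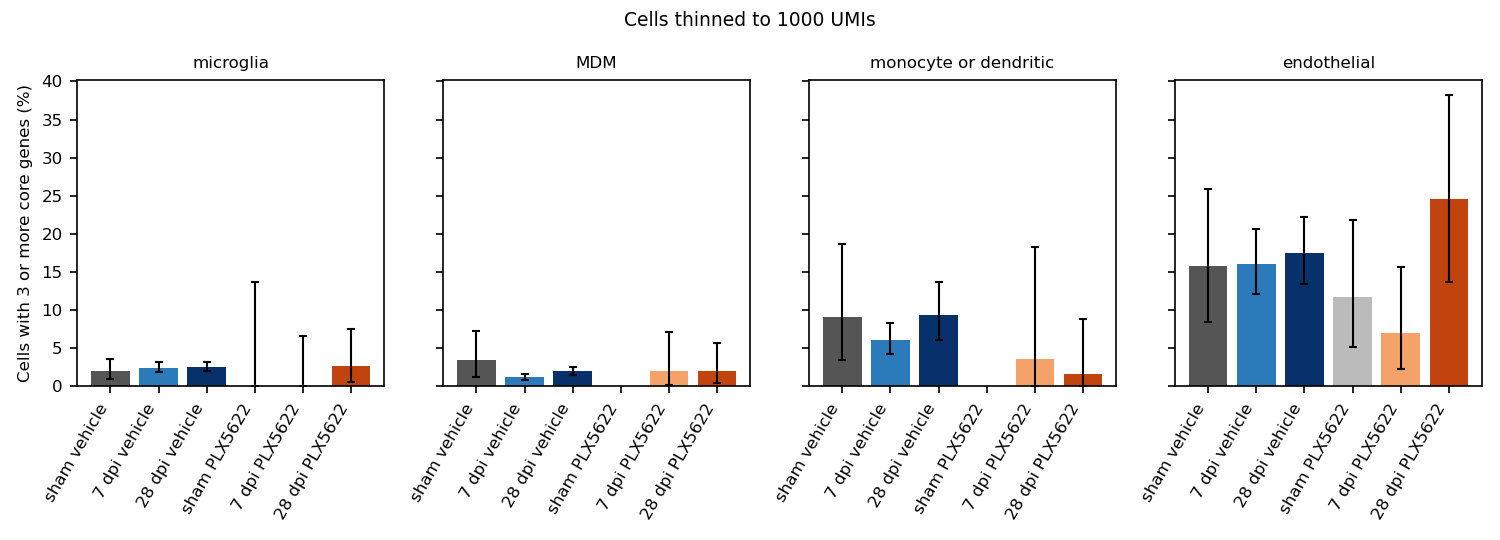
Percent of cells with UMIs of at least 3 of the 20 core genes after thinning to 1000 UMIs per cell, by cluster and library; error bars are exact 95% Clopper-Pearson intervals, and libraries with fewer than 20 such cells are left empty. Endothelial cells lie highest of the 4 clusters in each library, and the intervals of the 3 vehicle microglia libraries overlap at 2.01%, 2.47% and 2.61%.

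Cells with a UMI of Ifit3 showed which members shared cells. In microglia of all libraries, 156 thinned cells had an Ifit3 UMI and 5636 had none. Isg15 gave 801 UMIs per 1000 cells in the cells with Ifit3 and 39.4 in those without, Ifit1 481 and 10.1, Rsad2 333 and 8.52, Irf7 308 and 18.1, and Mx1 179.5 and 7.81. The abundant members differed less than these between the same cells, Ifitm3 the most of them. Ifitm3 gave 1096 and 215, Bst2 859 and 302, Ifi27l2a 1038 and 456, and Lgals3bp 865 and 487 UMIs per 1000 cells. Irf9 was almost level, at 44.9 and 38.7. In MDMs, 96 cells with Ifit3 held Isg15 at 427 UMIs per 1000 cells against 30.3 in the 6603 without, and Rsad2 at 385 against 12.1.

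In endothelial cells the split was smaller. The 70 cells with an Ifit3 UMI held Ifit1 at 500 UMIs per 1000 cells and the 800 cells without held it at 231. Isg15 stood at 671 and 276 and Rsad2 at 600 and 119, while Bst2 at 300 and 310 and Lgals3bp at 129 in both did not separate the cells. The values pool libraries and describe these cells only.

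**Figure D5:**
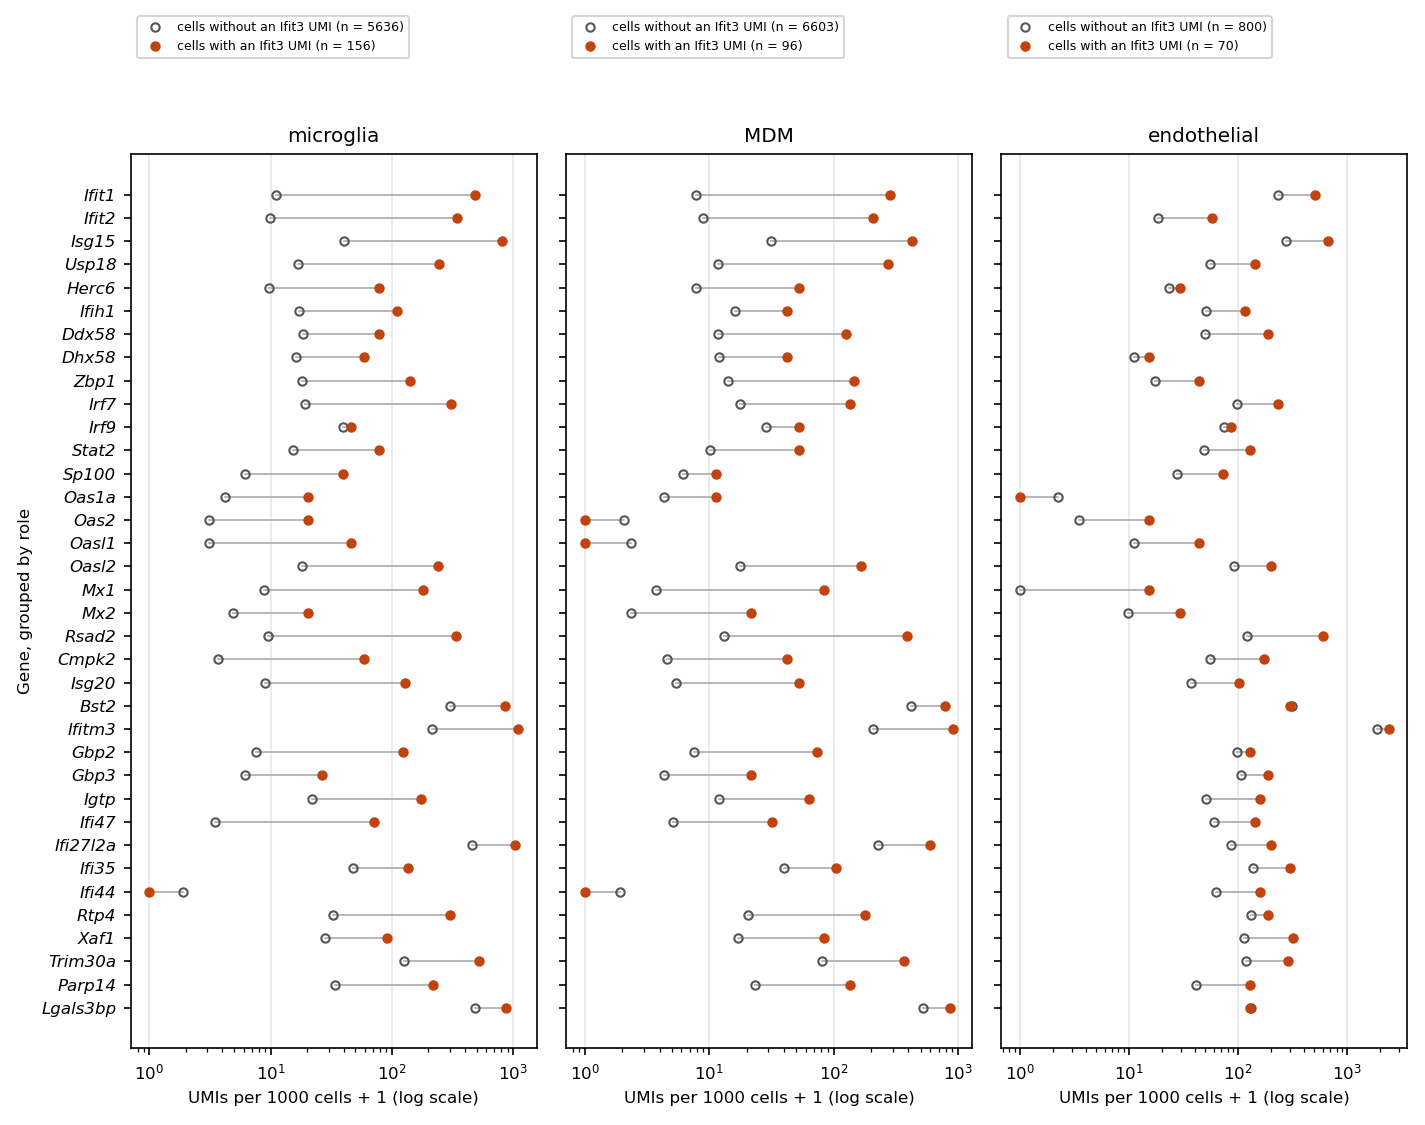
UMIs per 1000 cells plus 1, on a log axis, of the other 36 members (1 row per gene, grouped by role) in cells with an Ifit3 UMI (filled circles) and without (open circles), for microglia, MDMs and endothelial cells thinned to 1000 UMIs; a grey line joins both values of a gene. In microglia the circles of Isg15, Ifit1 and Rsad2 lie far apart, and in endothelial cells those of Bst2 and Lgals3bp nearly coincide.

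The erythroid cluster held an unusual pattern of a few members. In its 120 sham vehicle cells Isg15 stood at 4367 CPM with a UMI in 61.7% of cells, Rsad2 at 3894 CPM in 80.8% and Isg20 at 4606 CPM in 95.8%, and the conjugating enzyme Ube2l6, not a member, at 9996 CPM. Irf7 stood at 324.5 CPM with a UMI in 24.2% of cells and Herc6 at 70.5 CPM, and both were highest in this cluster in that library, followed by endothelial cells at 84.1 and 38.8 CPM. Sp100 at 98.8 CPM, Cmpk2 at 49.4 CPM and Usp18 at 35.3 CPM were second among the clusters there. Ifit1 stood at 49.4 CPM and Ifit3 at 7.05 CPM. Haemoglobin Hba-a2 stood at 80200 CPM in these cells but at 2481 and 2913 CPM in the cells of that cluster at 7 and 28 dpi vehicle, where Apoe stood at 83600 and 70480 CPM and C1qa at 6634 and 8397 CPM. The label therefore goes against the data in the injured vehicle libraries, and Isg15 there stood at 196 and 366 CPM.

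Genes of the signalling pathway, from a list of ligands, receptors, kinases, factors, inhibitors and sensors, were mostly at a lower CPM in microglia after injury, as were most genes. Of 20 compared, 0 were past the fold upward at each time (background 4.02% at 7 dpi and 3.62% at 28 dpi) and 7 downward (background 21.5% and 12.5%). The list had a median log2 ratio of -0.90 at 7 dpi and -0.68 at 28 dpi, which the 0.63 and 0.50 that TMM scaling adds would leave below 0, beside -0.54 and -0.44 for all genes compared. Among receptors, the interferon-gamma receptor chain Ifngr1 stood at 1052, 251 and 293 CPM in sham, 7 dpi and 28 dpi vehicle microglia and at 394, 100.5 and 126.5 CPM in MDMs. The log2 ratios of Ifngr1 over sham in microglia were -2.07 (-2.16 to -1.98) and -1.84 (-1.93 to -1.76). The type I receptor chains moved less: Ifnar1 stood at 70.6, 48.0 and 49.7 CPM and Ifnar2 at 368, 297 and 318 CPM in microglia.

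Socs3, an inhibitor of the Jak kinases, had the largest difference of the list, at 474, 88.4 and 55.2 CPM in sham, 7 dpi and 28 dpi vehicle microglia and 187, 15.8 and 17.7 CPM in MDMs. Tmem173, the adaptor of DNA sensing known as STING, stood at 424, 149 and 152 CPM in microglia and 121, 40.4 and 55.1 CPM in MDMs. The factor Irf1 stood at 39.6, 15.9 and 19.4 CPM in microglia. Irf8, a factor of myeloid cells, gave 5, 142 and 129 UMIs in 82, 351 and 420 endothelial cells, where the microglia and MDM markers moved the same way. Interferon-gamma itself (Ifng) was held by T and NK cells. It had 24, 15 and 14 UMIs in 67, 153 and 349 of these cells in sham, 7 dpi and 28 dpi vehicle. Under PLX5622 it had 6, 5 and 5 UMIs in 21, 23 and 151 cells, and microglia of the 6 libraries had 1. These are raw counts, so fewer UMIs per cell were found at 28 dpi than in sham under both diets. The type I and type III ligand genes of the list were not analysed here.

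Other interferon-induced genes outside the 37, of which 31 were in the count table, gave a second reading. In microglia at 7 dpi 0 of 22 were past the fold upward (background 4.02%) and 4 downward (background 21.5%), and at 28 dpi 0 of 24 (background 3.62%) and 3 (background 12.5%), so both downward shares were near or below the background. The lowest at both times was the guanylate-binding protein Gbp7, at 60.1, 12.6 and 18.0 CPM in sham, 7 dpi and 28 dpi, and the highest at 7 dpi was the galectin Lgals9 (0.49) and at 28 dpi the DNA sensor Ifi204 (0.41). The chemokine Cxcl10 stood at 80.2, 23.1 and 29.5 CPM, and 119 of its 168 sham UMIs came from 1 cell. In MDMs 1 of 24 was upward (background 4.09%) and 8 downward (background 11.0%) at 7 dpi, and 0 of 21 (background 1.53%) and 3 (background 5.63%) at 28 dpi. In endothelial cells none of 12 at 7 dpi (background 5.43% up and 4.58% down) and none of 9 at 28 dpi (5.06% and 2.71%) was past the fold. The comparisons of 7 and 28 dpi share their sham library, so they are not separate evidence.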

How the data were processed

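Cells of 6 droplet libraries were analysed from the table of raw UMI counts that the authors deposited, with their cluster and library for each cell. Per the labels, reads were aligned to GRCm38 (mm10), and Cell Ranger and Seurat are named without a version. Cells had been filtered by the authors at 200 genes (the fewest in a kept cell was 199), and the stated maximum of 3000 genes was not applied in the table, where 716 cells exceed it and the most is 8982. The labels give 1916, 7439 and 9848 cells for sham, 7 dpi and 28 dpi vehicle and 594, 533 and 940 for PLX5622. A further 14 bulk samples were not analysed here.

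UMIs were summed per gene, cluster and library and set over all UMIs of the cells summed, as CPM. Exact Poisson intervals at 95%, exact conditional binomial intervals for log2 ratios and Clopper-Pearson intervals for shares were computed with scipy 1.17.1, scanpy 1.11.5, numpy 2.4.6 and pandas 2.3.3 in Python 3.11.15, and figures drawn with matplotlib 3.10.9. A library at 0 was set to 3 counts. Clusters with fewer than 20 cells in a library were not compared. With 1 library per condition, no test was run, and the scripts were tested on simulated data. All members are described by role, and pathway genes from a list. The members and lists were chosen with earlier results of these data known. Cells were thinned to 1000 UMIs at random. Doublets were left in, and Scrublet was run at 0.8% per 1000 barcodes as an alternative. Other alternatives were edgeR 4.0.16 TMM and DESeq2 1.42.0 size factors (R 4.3.3), totals without ribosomal protein genes, equal cell weights, other depths and thresholds, and 2 chosen after seeing the data: cells low in microglia and MDM markers, and leaving out the cell richest in a gene.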

Additional observations from a re-analysis of the deposited data

Results flagged for a closer look

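Each difference below is between single libraries and was not tested. They are listed because the 2 values of a contrast lie in opposite directions, or because 1 cluster ran against another.

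In microglia the log2 ratio of Zbp1 between PLX5622 and vehicle was -2.0 at 7 dpi and 1.13 at 28 dpi, from 2 and 20 UMIs under PLX5622. In CPM the module in microglia was higher after injury under vehicle, at 0.63 for 7 dpi and 0.56 for 28 dpi over sham, where the MDM module was lower, at -0.41 and -0.3. From 7 to 28 dpi under vehicle the module log2 ratio was -0.07 in microglia and 0.11 in MDMs, and 0.26 in microglia under PLX5622. Between PLX5622 and vehicle microglia it was -0.74 in sham, -0.19 at 7 dpi and 0.14 at 28 dpi.

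From 7 to 28 dpi the core list in the monocyte or dendritic cluster had a log2 ratio of 0.3 under vehicle and -1.1 under PLX5622. The module in T and NK cells stood at 0.27 and -0.31 for the same contrast, in the oligodendrocyte lineage at 0.55 and -0.81, and in ependymal cells at -0.18 and 0.3. The oligodendrocyte lineage held 57 and 27 module UMIs at 7 and 28 dpi under PLX5622, and its 12 microglia and MDM markers went from 6099 to 3112 CPM under vehicle and from 1661 to 312 CPM under PLX5622. Between PLX5622 and vehicle, the ependymal module was at 0.19 in sham, -0.18 at 7 dpi and 0.29 at 28 dpi. In ependymal cells these 12 markers stood at 385, 8080 and 3533 CPM under vehicle and 356, 3271 and 984 CPM under PLX5622.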

How the results depend on the processing

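No paired analysis was possible because each condition was 1 library and the results come from no test. Scrublet called 1 of 9846 cells in the 28 dpi vehicle library, so its alternative was not applied to comparisons with that library. Depth limits the members with few UMIs, of which 11 could not be compared in microglia at 7 dpi. In what follows, values are for microglia at 7 and 28 dpi over sham, MDMs at 7 and 28 dpi over sham, and MDMs of PLX5622 over vehicle at 7 and 28 dpi, in that order, and the causes of these changes were not tested.

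The module log2 ratio became 1.26, 1.06, -0.0515, 0.0233 (reversed), -0.38 and -0.0494 with TMM factors. With DESeq2 size factors it was 1.27 and 1.05 in microglia, -0.0544 and 0.0198 (reversed) in MDMs after injury and -0.0444 for PLX5622 at 28 dpi. Without ribosomal protein genes microglia gave 0.80 and 0.68. With each cell weighted alike the values were 0.78, 0.70, -0.23, -0.17 and -0.40 (7 dpi PLX5622). Thinned to 1000 UMIs they were 0.83 and 0.75 in microglia and -0.28 in MDMs at 7 dpi. Without the 4 abundant members the values were -0.40 and -0.22 (both reversed), -0.76, -0.63, -0.22 and 0.14. Without them, microglia gave 0.17 for 28 over 7 dpi and -0.0214 for 7 dpi over sham under PLX5622 (both reversed). The core list alone gave -0.19 and -0.0298 (both reversed), -0.84, -0.77, -0.15 and 0.29, and 0.16 for microglia at 28 over 7 dpi (reversed). Thinned, Ifit1 in MDMs at 28 dpi turned to 0.0668.

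Counts of members past the fold also moved. The share of all genes was not computed at these other settings, so the counts below have no background and cannot be set against that of all genes. At 1.5-fold, 5 and 5 were upward in microglia, 6 were downward at 28 dpi, 20 and 13 were downward in MDMs, and under PLX5622 3 were upward and 9 downward at 7 dpi and 2 downward at 28 dpi. From 30 UMIs on, 6 and 3 were downward in microglia, 1 was upward in MDMs at 7 dpi, and 5 were upward for PLX5622 at 28 dpi. With TMM, 7 and 6 were upward and 0 and 0 downward in microglia, 2 and 2 downward in MDMs, and 0 upward for PLX5622 at 7 dpi. Without the richest cell of each gene, an alternative chosen after seeing the data, 1 and 0 were downward in microglia, 1 was upward and 4 downward in MDMs at 7 dpi, 1 was downward at 28 dpi, and PLX5622 MDMs gave 0 upward and 8 downward at 7 dpi and 0 and 1 at 28 dpi.

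The share of vehicle microglia with at least 3 core genes in sham, 7 dpi and 28 dpi was 5.19%, 7.89% and 5.84% without thinning. For at least 2 genes it was 4.02%, 5.14% and 6.00%. For at least 4 genes it was 1.46% and 1.79% after injury, at 2000 UMIs 5.32% and 5.89%, and at 500 UMIs 1.25% and 1.43%.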
